A study of Danio rerio with 3 samples.

Results

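The genes of the proteasome, the complex that degrades proteins marked with ubiquitin, were followed across the cell types of the adult zebrafish retina. All gene symbols that begin with psma, psmb, psmc or psmd followed by a digit were taken, which gave 46 symbols of the 30579 in the files. Of these, 45 name proteasome genes, 22 of the 20S core (9 psma and 13 psmb) and 23 of the 19S cap (7 psmc and 16 psmd, of which 3 are chaperones that help to build the cap), and psmc3ip, a protein of meiotic recombination, matched by its letters only. P23H V3 and P23H V2 are libraries from whole retinas of the line uth4Tg, which expresses the P23H mutant of rhodopsin in rods and is a model of retinitis pigmentosa, made with the V3 and the V2 chemistry of the 10x platform. WT V3 is a library from whole retinas of the wild-type line AB, made with the V3 chemistry. Each library pooled cells of 3 fish, and the labels give an age of 4 to 8 months and collection 2 to 4 hours after light onset for all of them. With 1 library per genotype and chemistry there was no test between genotypes, and genotype, line and library cannot be told apart. P23H V2 differs from WT V3 in chemistry too, so that genotype and chemistry cannot be told apart wherever these libraries are compared. The intervals below are exact 95% intervals that cover counting error only.

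The proteasome is built from a barrel, the 20S core, and a regulator, the 19S cap, on its ends. The alpha subunits (psma) form the outer rings that gate the barrel, and the beta subunits (psmb) form the inner rings, in which psmb5, psmb6 and psmb7 carry the cutting sites. The base of the cap holds a ring of ATPases (psmc) that unfold the substrate, with psmd1, psmd2 and the ubiquitin receptor psmd4, and the lid holds psmd14, which removes the ubiquitin chain. In cells of the immune system, and in other cells under interferon, the catalytic subunits are replaced by immune counterparts, in zebrafish encoded by copies of psmb8 and psmb9, by psmb10 and by psmb12. P23H rhodopsin is a misfolded protein that cells clear through the endoplasmic reticulum and the proteasome, and the subunit genes are therefore of interest in rods and in the progenitors that replace them.

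The P23H V3 library held 15514 cells after filtering, with a median of 1244.5 unique molecular identifiers (UMIs, each a counted transcript) per cell, the P23H V2 library 4671 cells with a median of 457 UMIs, and the WT V3 library 13554 cells with a median of 1220 UMIs. Clusters were named from fixed marker genes, which gave 15 cell types over the V3 libraries and left 154 P23H V3 cells and 1260 WT V3 cells unnamed. The V3 libraries shared 62 barcodes among the kept cells, and the summed ratios of the 15 types and those of the named genes followed through the alternatives in rods, newly formed rods, RPCs and NPCs were of the same direction without them. Transcripts of other cell types differed in level between the libraries, and whether they were free RNA was not tested. Rhodopsin (rho), a rod transcript, stood at 839 CPM (UMIs of a gene per 1000000 UMIs of all genes in the same cells) in the cones of P23H V3 and at 4691 CPM in those of WT V3, and at 1837 CPM and 13375 CPM in the bipolar cells. Bipolar cell markers went the other way. They summed to 2171 CPM in P23H V3 cones and 967 CPM in WT V3 cones, and to 4988 CPM and 2510 CPM in amacrine cells. The rods of the P23H V2 library were of mixed identity, with 29692 CPM of the 7 rod markers together, against 177953 CPM in P23H V3 rods and 305726 CPM in WT V3 rods, and they are given as values only.

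Subunit genes made up 0.390% of all UMIs in the P23H V3 library, 0.416% in the P23H V2 library and 0.321% in the WT V3 library, from 120877, 10791 and 102347 UMIs. Levels over all cells, here and below, also depend on which cell types a library held. Retinal progenitor cells gave 23609 of the subunit UMIs in P23H V3, 2730 in P23H V2 and 2979 in WT V3. Newly formed rods gave 12898, 1248 and 1888 of them. The part of this make-up in the levels over all cells was not tested. Of the 46 symbols, 44, 43 and 44 had at least 1 UMI, and 41, 35 and 39 of the 45 subunit genes had at least 50. The copy psmb11a, a counterpart of a subunit known from the mammalian thymus, and psmd10, a chaperone of the cap, were at 0 in all 3 libraries. By counting error alone this allows up to 3 UMIs in each. Both symbols have 2 feature rows of the same name, and how reads shared by such rows were counted was not tested. Both copies of psmb11 together had 4 UMIs in P23H V3 and 1 UMI in WT V3. The most abundant alpha subunit was psma3, a part of the outer ring, with 287 CPM in P23H V3, 382 CPM in P23H V2 and 211 CPM in WT V3. The catalytic subunit psmb7 followed with 252, 327 and 192 CPM, and the lid subunit psmd8 was the most abundant cap gene of the V3 libraries with 140 CPM in P23H V3, 106 CPM in P23H V2 and 102 CPM in WT V3. Levels of different genes are UMIs of 3′ ends and are not divided by length, since 3′ counts do not grow with it. psma5, an alpha subunit that every barrel contains, had only 31 UMIs in each V3 library and 10 in P23H V2, over 2 feature rows of the same name.

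In P23H V3 the summed level of the subunit genes was highest in retinal progenitor cells (RPCs), with 7858 CPM (interval 7758 to 7959), and in newly formed rods, with 7673 CPM (7541 to 7807), whose intervals overlapped. Retinal ganglion cells came next with 4923 CPM (4822 to 5025). From neurogenic progenitor cells (NPCs, 3902 CPM) through amacrine cells, rods, oligodendrocytes, horizontal cells, bipolar cells, T lymphocytes, Müller glia and microglia to retinal pigmented epithelium (RPE, 2593 CPM), each type overlapped with the next in the order. Cones, with 1943 CPM (1903 to 1985), and erythroid cells, with 1436 CPM (1384 to 1489), were lowest. In the P23H V2 library RPCs were highest too, with 7290 CPM (7019 to 7569), newly formed rods had 6559 CPM (6200 to 6933), and cones were lowest of the 12 types found there with 1823 CPM (1680 to 1976).

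In WT V3 the order began with RPCs at 5056 CPM (4876 to 5241), and ganglion cells at 4635 CPM, NPCs at 4485 CPM and newly formed rods at 4145 CPM each overlapped with the next. Rods stood at place 13 of 15 with 2400 CPM (2314 to 2488), above cones with 2212 CPM (2177 to 2247) and erythroid cells with 944 CPM (887 to 1005), and these neighbours did not overlap. Newly formed rods were thus at place 2 in P23H V3 and at place 4 in WT V3, and rods at place 6 in P23H V3 and at place 13 in WT V3.

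**Figure D1:**
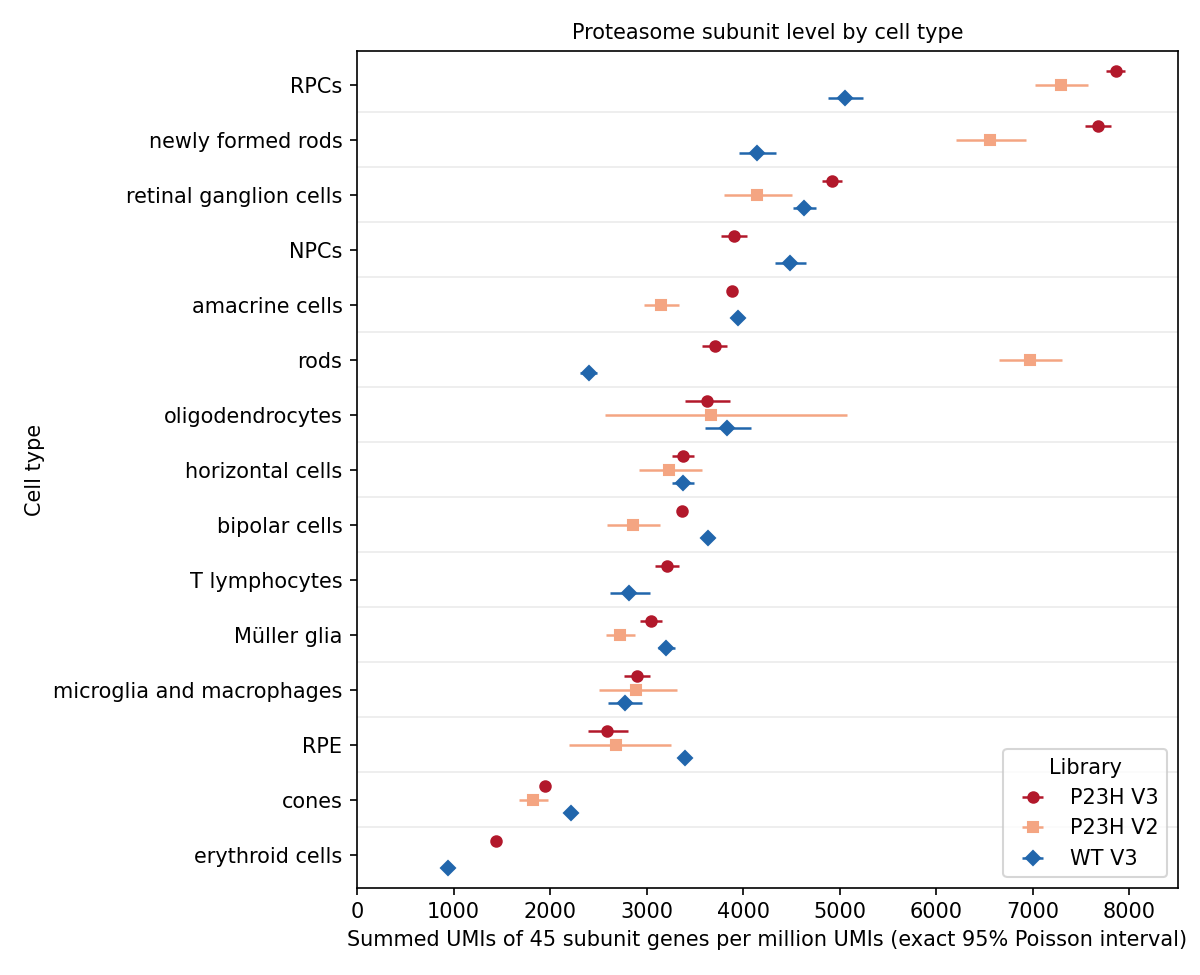
Summed level of the 45 subunit genes (x axis, CPM) in each cell type (y axis) in P23H V3, P23H V2 and WT V3; points are the library's value and bars the exact 95% counting interval. RPCs (7858 CPM) and newly formed rods (7673 CPM) of P23H V3 stand to the right of all types of WT V3, of which RPCs (5056 CPM) were highest.

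The summed level was higher in P23H V3 than in WT V3 beyond the counting interval in 6 of 15 types (rods, newly formed rods, RPCs, ganglion cells, erythroid cells and T lymphocytes) and lower in 5 (cones, bipolar cells, Müller glia, RPE and NPCs). The log2 ratio was 0.89 (0.82 to 0.96) in newly formed rods, 0.64 (0.58 to 0.69) in RPCs and 0.63 (0.55 to 0.70) in rods. In NPCs it was -0.20 (-0.27 to -0.13), in cones -0.19 (-0.23 to -0.15) and in bipolar cells -0.11 (-0.14 to -0.08). In amacrine cells, horizontal cells, microglia and oligodendrocytes the interval of the ratio included 0, and the ratio lay between -0.08 and 0.06. The 5 amacrine clusters lay on both sides of 0, from -0.17 (-0.26 to -0.08) to 0.23 (0.06 to 0.40). In ganglion cells the ratio was 0.087 with P23H V3 and -0.16 (-0.29 to -0.03) with P23H V2. CPM are shares of a library, and the median log2 ratio of all genes tested in a type was not 0 everywhere. It was 0.69 in erythroid cells, 0.31 in rods, 0.23 in RPE and in newly formed rods, and 0.13 in RPCs. Taken relative to that median, the summed subunit level was higher by 0.66 on the log2 scale in newly formed rods, by 0.50 in RPCs and by 0.32 in rods, while it was -0.62 in RPE and -0.08 in erythroid cells, where the sign turned. With P23H V2, whose median over all genes was higher by 0.41 in RPCs and by 0.32 in newly formed rods, the summed level relative to that median was higher by 0.12 in RPCs and by 0.34 in newly formed rods. In the rods rho took 133469 CPM in P23H V3 and 247820 CPM in WT V3, and in the erythroid cells the 5 erythroid markers in the files took 117832 CPM and 379064 CPM. The part of these shares in the ratios was not separately tested beyond the scaling alternatives.

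Across the 15 types the subunit genes of a library had similar profiles. The rank correlation of each subunit with the sum of the others had a median of 0.83 over 41 genes in P23H V3 and 0.79 over 39 genes in WT V3, and it was above 0.8 for 23 and for 18 of them. psma3 had the highest value in both V3 libraries, 0.96 and 0.95. The 6 genes below 0.5 in P23H V3 were the 4 immune catalytic subunits, psma6l and psmd11a, and the 7 in WT V3 included the lid subunits psmd6 and psmd12. These correlations are descriptions over 15 points that share library, depth and cell naming. Core and cap levels had a Pearson correlation of 0.87 in P23H V3 and of 0.84 in WT V3 over the same types. Their rank correlation was 0.71 in P23H V3 and 0.86 in WT V3, so that the order of the libraries turned.

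The core took more UMIs than the cap in every type of the V3 libraries. The share of subunit UMIs that came from the core was highest in T lymphocytes, 75.4% in P23H V3 and 71.4% in WT V3, and it was 54.4% and 53.1% in oligodendrocytes. In RPCs the core share was 68.9% (68.3 to 69.4) in P23H V3, 68.9% (67.1 to 70.6) in P23H V2 and 63.5% (61.7 to 65.2) in WT V3. In microglia it was 69.1% (66.9 to 71.2) in P23H V3, 70.6% (63.8 to 76.7) in P23H V2 and 63.8% (60.7 to 66.8) in WT V3. These were the 2 types whose core share was higher in P23H V3 with intervals apart. The core sums hold the immune catalytic subunits, and shares without them were not taken. In microglia the immune subunits gave 317 of 1305 core UMIs in P23H V3 and 105 of 630 in WT V3. In RPCs they gave 501 of 16257 and 16 of 1891, and in T lymphocytes 586 of 1850 and 121 of 503. In cones the core share was lower, with 54.3% (53.3 to 55.4) in P23H V3, 56.3% (52.2 to 60.3) in P23H V2 and 57.6% (56.8 to 58.4) in WT V3. Rods (57.5% in P23H V3 and 54.5% in WT V3) and newly formed rods (64.5% and 62.3%) had intervals that overlapped. The count of 2 types was 1 without psmc6, a cap gene described below, and 4 when each library was clustered by itself.

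**Figure D2:**
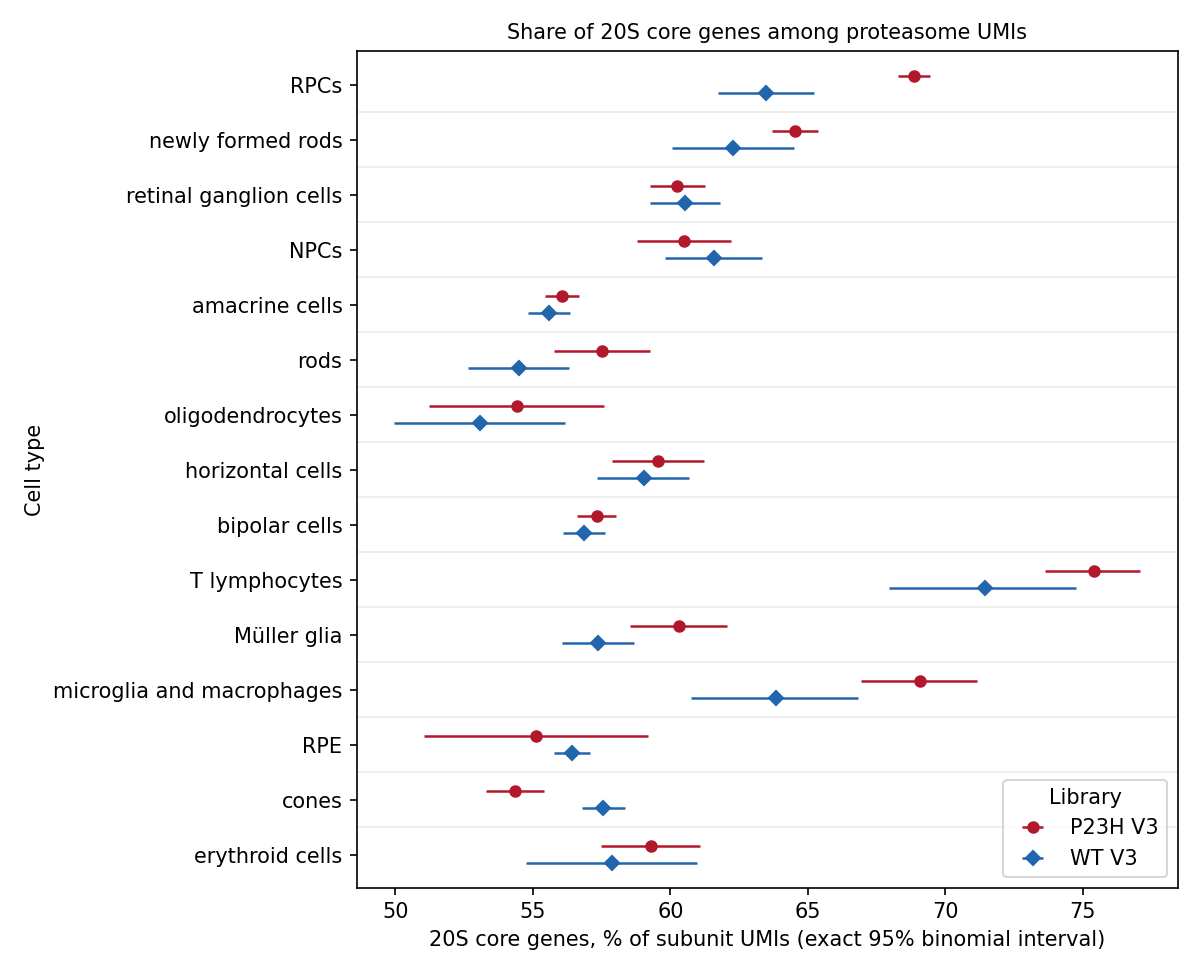
Share of subunit UMIs from the 20S core (x axis, percent) by cell type (y axis) in P23H V3 and WT V3, on an axis that does not start at 0; points are the library's share and bars the exact 95% binomial interval. The share in RPCs was 68.9% in P23H V3 and 63.5% in WT V3, and T lymphocytes (75.4% and 71.4%) lay highest. The core includes the immune catalytic subunits.

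In newly formed rods, the young rods of the regenerating retina, 27 of 35 subunit genes with at least 50 UMIs were at least 1.5-fold higher in P23H V3 (561 cells) than in WT V3 (153 cells), where 29.7% of 4104 genes were, and 1 was at least 1.5-fold lower, where 13.1% of all genes were. The median log2 ratio of the 35 subunit genes was 0.83 against 0.23 for all genes, and 31 subunit genes lay above the median of all genes. The cluster itself differed between the libraries. Its 7 own markers summed to 14792 CPM in P23H V3 and 7441 CPM in WT V3, all detected in both, the 7 rod markers to 6680 CPM and 23111 CPM, and the 12 RPC markers to 726 CPM and 375 CPM, with 10 and 5 of them detected. The part of this difference in maturity in the subunit ratios was not tested.

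By role, the lid and the alpha ring had the highest ratios in newly formed rods among the roles with a subunit gene of at least 50 UMIs. The 9 lid genes summed to 1355 CPM in P23H V3, 1088 CPM in P23H V2 and 659 CPM in WT V3, a log2 ratio of 1.04 (0.87 to 1.22), and 7 of 9 passed 1.5-fold. The lid subunits psmd8 and psmd13 had the highest ratios of the subunit genes with at least 50 UMIs. psmd8 had 332 CPM in P23H V3, 210 CPM in P23H V2 and 112 CPM in WT V3 (558, 40 and 51 UMIs), a log2 ratio of 1.57 (1.15 to 2.01). psmd13 had 191, 163 and 68.1 CPM, a log2 ratio of 1.49 (0.95 to 2.07). Both were chosen by the P23H V3 ratio, and both P23H libraries are set against the same WT V3 library, here and below. P23H V2 differs from that library in chemistry as well.

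The alpha ring summed to 2339 CPM in P23H V3, 2244 CPM in P23H V2 and 1159 CPM in WT V3, a log2 ratio of 1.01 (0.88 to 1.15), with 6 of 7 tested subunit genes past 1.5-fold. psma8, listed in RefSeq (GRCz12tu) with the synonym psma7, had 392 CPM in P23H V3, 310 CPM in P23H V2 and 140.5 CPM in WT V3, a log2 ratio of 1.48 (1.11 to 1.87). psma2, also of the ring, had 200.5, 221 and 173 CPM, and its interval included 0. The catalytic beta subunits summed to 1111 CPM in P23H V3, 983 CPM in P23H V2 and 593 CPM in WT V3, a log2 ratio of 0.91, and were unequal. psmb7, which cuts after basic residues, had 573 CPM in P23H V3, 688.5 CPM in P23H V2 and 226 CPM in WT V3, a log2 ratio of 1.34 (1.05 to 1.65). psmb6, which cuts after acidic residues, had 379, 205 and 277 CPM, so that P23H V2 lay below WT V3. psmb5, which cuts after hydrophobic residues, had 158 CPM in P23H V3, 89.4 CPM in P23H V2 and 90.0 CPM in WT V3, and here too the higher level was found in 1 P23H library only.

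The structural beta subunits summed to 1478 CPM in P23H V3, 1104 CPM in P23H V2 and 821 CPM in WT V3, a log2 ratio of 0.85 (0.69 to 1.01). psmb1 had 565, 431 and 268 CPM and psmb3 had 362, 294 and 182 CPM, the P23H libraries above WT V3 for each. The base ATPases, which form the unfolding ring, had a log2 ratio of 0.56 (0.35 to 0.78), with 695 CPM in P23H V3, 505 CPM in P23H V2 and 470 CPM in WT V3. Among them psmc2 had 169, 131 and 85.6 CPM and psmc5 151, 137 and 92.2 CPM. psmc6 was the only ATPase at the other side of 0, with 44.6 CPM in P23H V3, 36.8 CPM in P23H V2 and 83.4 CPM in WT V3, a log2 ratio of -0.90 (-1.48 to -0.30). The cap chaperone psmd9 had 61.3, 63.1 and 81.2 CPM with an interval that included 0. With P23H V2 in place of P23H V3, 13 of 26 subunit genes passed 1.5-fold higher, where 40.8% of 1651 genes were, and with each library clustered by itself the summed log2 ratio was 1.07.

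**Figure D3:**
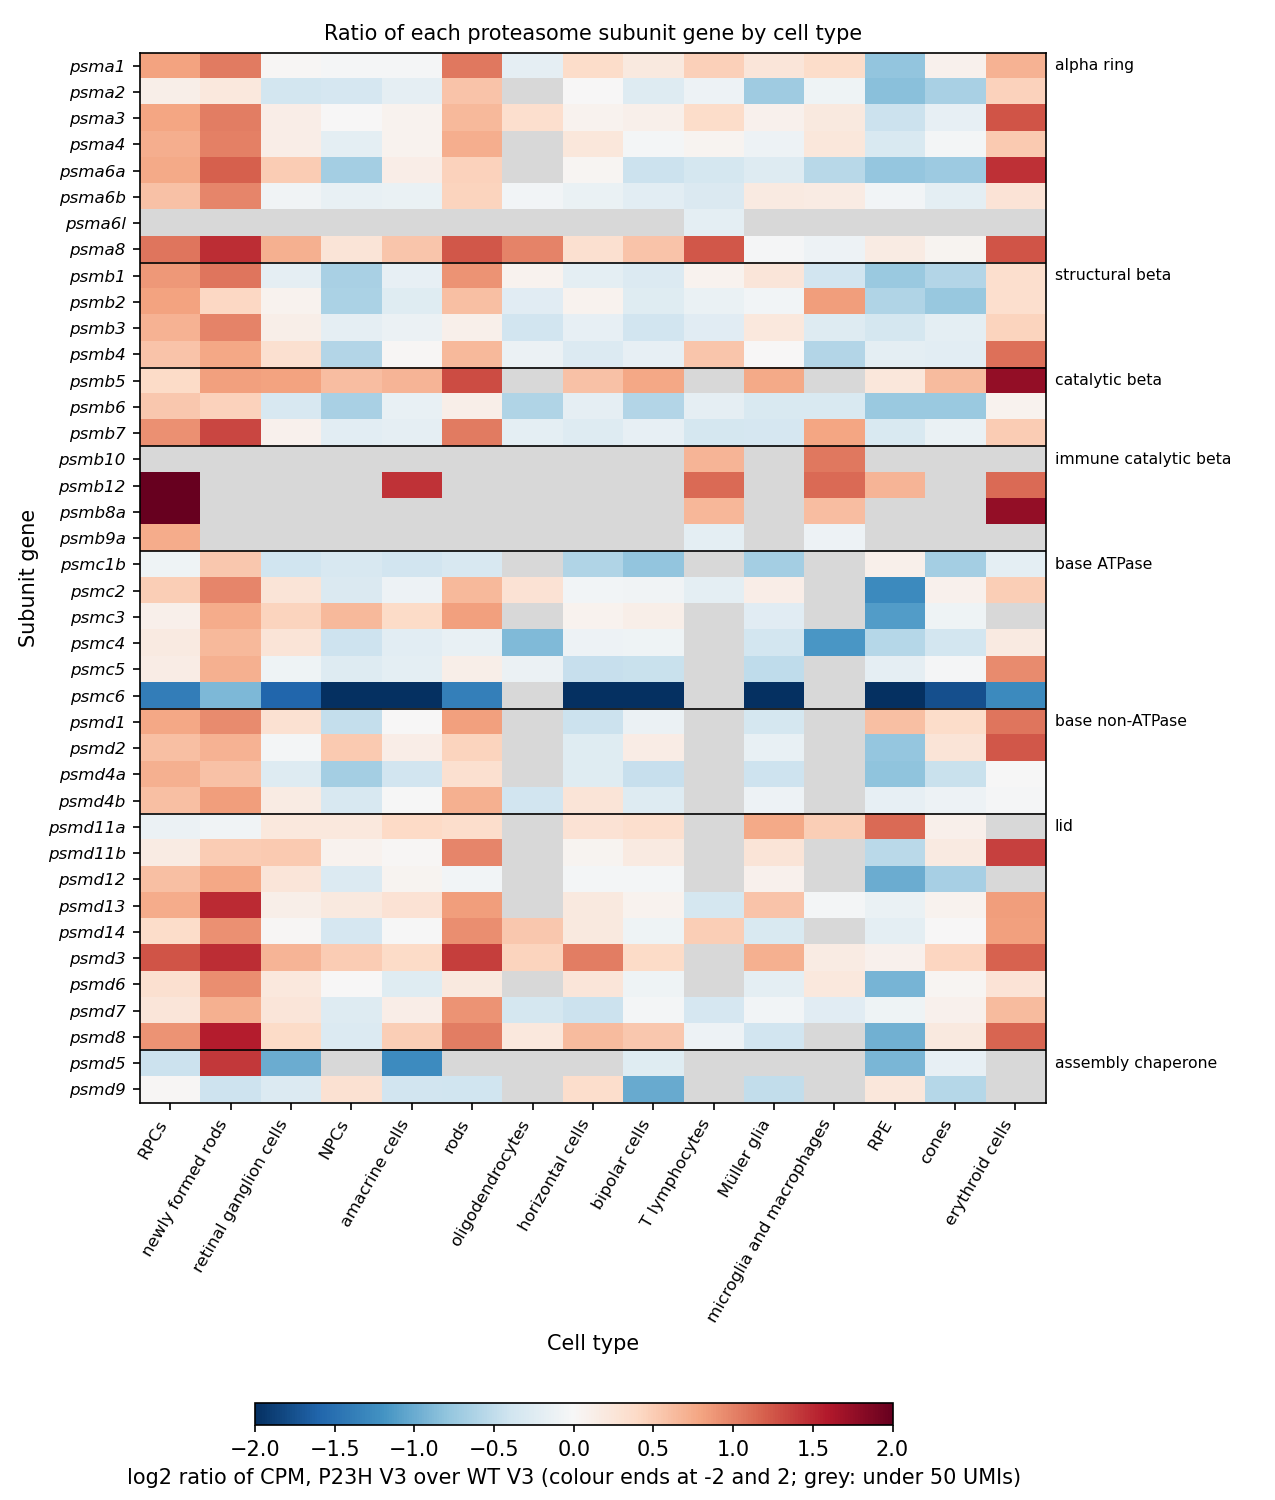
Log2 ratio of P23H V3 over WT V3 (colour, ending at -2 and 2) for each subunit gene (y axis, grouped by role) in each cell type (x axis); grey marks genes with under 50 UMIs over both libraries. Red columns are seen for newly formed rods (27 of 35 subunit genes at least 1.5-fold higher), RPCs, rods and erythroid cells (17 of 32). The psmc6 row is blue in all 12 types with a value.

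In RPCs, the dividing cells that give rise to new retinal neurons, 20 of 38 subunit genes were at least 1.5-fold higher in P23H V3 (401 cells) than in WT V3 (78 cells), where 23.7% of 5193 genes were, and 21 were past 1.5-fold in either direction, where 38.8% of all genes were. The median log2 ratio of the subunit genes was 0.60 against 0.13 for all genes. The 20 higher genes included 3 immune subunits, psmb12 (314 UMIs in P23H V3 and 3 in WT V3), psmb8a (80 and 3) and psmb9a (85 and 10). The UMI limit for testing a gene counts both libraries together, and these 3 passed it through their P23H V3 UMIs. The same limit held for all genes, and the count without these 3 was not taken. The 12 RPC markers were all detected in both libraries. They summed to 6961 CPM in P23H V3 and 9379 CPM in WT V3, though 9 of the 12 were higher in P23H V3. The rod markers summed to 529 CPM and 2602 CPM. The part of this difference in make-up in the subunit ratios was not tested. The structural beta subunits had 1582 CPM in P23H V3, 1429 CPM in P23H V2 and 933.5 CPM in WT V3, a log2 ratio of 0.76 (0.63 to 0.89), and the alpha ring 2531, 2641 and 1555 CPM, with a ratio of 0.70 (0.60 to 0.80) on the same scale. In both groups the P23H libraries lay above WT V3 in CPM.

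The lid was higher by less in RPCs, a log2 ratio of 0.56 (0.42 to 0.70), with 1242 CPM in P23H V3, 1178 CPM in P23H V2 and 843.5 CPM in WT V3. Its scaffold subunit psmd3 had 182 CPM in P23H V3, 107 CPM in P23H V2 and 76.4 CPM in WT V3, a log2 ratio of 1.26 (0.82 to 1.73). psma8 had 375, 355 and 178 CPM, and psmb7 619, 534 and 329 CPM, with both P23H libraries above WT V3. The base ATPases, summed with psmc6, had a log2 ratio of 0.05 (-0.12 to 0.22), with 585 CPM in P23H V3, 473 CPM in P23H V2 and 565 CPM in WT V3. None of the 6 tested ATPases passed 1.5-fold higher, and psmc6 was lower, with 34.6 CPM in P23H V3, 40.1 CPM in P23H V2 and 90.0 CPM in WT V3, a log2 ratio of -1.38 (-1.87 to -0.87). psmd5, a chaperone that holds the ATPases during assembly, had 32.6, 10.7 and 44.1 CPM with an interval that included 0. The summed ratio in RPCs was 0.99 when each library was clustered by itself, and with P23H V2 11 of 32 subunit genes passed 1.5-fold higher, where 42.0% of 2199 genes were, a share below that of all genes.

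In rods, 19 of 34 subunit genes were at least 1.5-fold higher in P23H V3 (505 cells) than in WT V3 (839 cells), where 35.9% of 3651 genes were, and 1 was lower, where 12.2% of all genes were. The summed level was 3705 CPM (3576 to 3837) in P23H V3 and 2400 CPM (2314 to 2488) in WT V3. The lid had 859 CPM in P23H V3 and 487 CPM in WT V3, a log2 ratio of 0.82 (0.66 to 0.98), the alpha ring 1048 CPM and 615 CPM, a log2 ratio of 0.77 (0.63 to 0.91), and the base ATPases 307 CPM and 298 CPM, a log2 ratio of 0.04 (-0.19 to 0.28). The summed ATPases, psmc6 included, thus had a smaller ratio than the lid and the alpha ring in rods, newly formed rods and RPCs. Of 6 tested ATPases, 2 passed 1.5-fold higher in rods, 4 in newly formed rods and 0 in RPCs. In each of these types 1, psmc6, was lower. The ATPase sums without psmc6 were not taken.

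The highest ratios in rods were those of psmd3 and psmb5. psmd3 had 148 CPM in P23H V3, 131 CPM in the mixed rods of P23H V2 and 56.7 CPM in WT V3 (125, 34 and 69 UMIs), a log2 ratio of 1.39 (0.95 to 1.83). psmb5 had 88.9, 124 and 36.2 CPM (75, 32 and 44 UMIs), a log2 ratio of 1.30 (0.74 to 1.87). psma1 had 172 CPM in P23H V3, 386 CPM in P23H V2 and 83.0 CPM in WT V3, and psmd7 154, 236 and 83.0 CPM. The lowest were psmc6, with 20.1 CPM in P23H V3, 30.9 CPM in P23H V2 and 51.8 CPM in WT V3, a log2 ratio of -1.36 (-2.23 to -0.57), and psmd9 with 33.2, 85.0 and 43.6 CPM and an interval that included 0.

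The rod ratio depended on the scaling and on which cells were counted. Scaled by the trimmed mean of M values (TMM, which sets the bulk of genes to no change) the summed log2 ratio was 0.29 and 8 of 34 subunit genes passed 1.5-fold higher, where 21.0% of genes were, a share near that of all genes, and the ratio was 0.34 with each library clustered by itself. A cluster of 48 P23H V3 and 1200 WT V3 cells held rod markers but stayed unnamed, with 3150 CPM in P23H V3 and 3174 CPM in WT V3, and counting it with the rods gave a ratio of 0.45. The rod clusters of P23H V2 had 6933 CPM (284 cells, 11130 CPM of rod markers and 19376 CPM of newly formed rod markers) and 7024 CPM (176 cells, 54351 CPM and 9947 CPM), near the 6559 CPM of the newly formed rods of that library.

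In NPCs the direction was the other way for most subunit genes. Of 34 subunit genes, 7 were at least 1.5-fold lower in P23H V3 (561 cells) than in WT V3 (363 cells), where 14.7% of 3920 genes were, and 2 were higher, where 14.7% were too. The median log2 ratio was -0.25 against -0.01 for all genes, and 11 of 34 subunit genes had a ratio above 0. The structural beta subunits were lowest, with 626 CPM in P23H V3 and 888 CPM in WT V3, a log2 ratio of -0.50 (-0.68 to -0.33). psmb1 had 188 CPM in P23H V3 and 295 CPM in WT V3, psmb2 had 141 and 219 CPM, and the catalytic psmb6 had 152 and 237 CPM, with intervals below 0 for all 3. For psmb3, with 194 CPM in P23H V3 and 219 CPM in WT V3, psmb7, with 232 and 270 CPM, and psma1, with 222 and 225 CPM, the interval included 0.

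The lid as a whole had 742 CPM in P23H V3 and 761 CPM in WT V3 in NPCs, a log2 ratio of -0.04 (-0.21 to 0.13). The lowest subunit genes were psmc6, with 20.5 CPM in P23H V3 and 82.4 CPM in WT V3, a log2 ratio of -2.01 (-2.89 to -1.20), and psma6a, with 83.1 and 133 CPM, a log2 ratio of -0.68 (-1.16 to -0.21). The highest, psmc3 with 54.2 and 34.5 CPM and psmb5 with 78.3 and 50.9 CPM, had intervals that reached 0. The name NPCs rests on 3 of 7 markers (marcksl1a, myca and sox4a), and none of the 7 was among the 10 leading genes of the cluster. NPC markers summed to 5772 CPM in P23H V3 and 6795 CPM in WT V3, bipolar cell markers to 8503 CPM and 7447 CPM, cone markers to 7609 CPM and 10485 CPM, and rod markers to 1925 CPM and 12307 CPM, and the part of this material in the ratios was not tested. The P23H V2 library had no cluster of this name. When each cell was assigned by its own markers, the summed ratio was -0.031.

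Cones, the other photoreceptors, had 8 of 35 subunit genes at least 1.5-fold lower in P23H V3 (1160 cells) than in WT V3 (1728 cells), where 25.1% of 7601 genes were, and 1 higher, where 19.2% were. The higher one was psmb5, with 52.5 CPM in P23H V3, 61.3 CPM in P23H V2 and 34.0 CPM in WT V3. The lower ones were psmc6, psmb2, psmb6, psma6a, psmc1b, psmd12, psma2 and psmb1. Both shares were below those of all genes. With a background profile subtracted, 11 subunit genes were higher and the summed ratio of cones was 0.041. The background share was unequal, 0.245 in P23H V3 cones and 0.437 in WT V3 cones, and whether the profile is free RNA was not tested. At a limit of 2-fold 1 subunit gene was lower. In RPE, 15 of 36 subunit genes were at least 1.5-fold lower, where 22.7% of 7128 genes were, and 3 higher, where 39.3% were. The RPE of P23H V3 held 149 cells, with 9695 CPM of bipolar cell markers, against 729 CPM in the 1081 cells of WT V3. The part of that material in the RPE ratio of -0.39 (-0.51 to -0.27) was not tested. In a cluster of 84 P23H V3 and 780 WT V3 cells the ratio was -0.19 (-0.39 to 0.0050), which included 0, and in the other, of 65 and 301 cells with medians of 1763 and 15591 UMIs, it was -0.45 (-0.60 to -0.30). For all RPE cells it was -0.80 with TMM scaling, described above for rods, and -0.11 without the 5% of cells with the most UMIs. In erythroid cells 18 of 32 subunit genes were past 1.5-fold in either direction, where 64.1% of 2519 genes were, and 1 of them was lower, where 8.61% of genes were, so that the share of subunit genes did not exceed that of all genes.

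Of the 31 subunit genes with enough UMIs in 12 or more types, 1 was lower in P23H V3 in every type tested. Of all 2156 such genes 2.97% were, so that the share of subunit genes was near that of all genes. The 1 gene was lower by at least 1.5-fold in each type, where 0.974% of genes were. This was psmc6, an ATPase of the base that every cap contains. Over all cells it had 21.3 CPM in P23H V3, 27.4 CPM in P23H V2 and 67.1 CPM in WT V3 (660, 71 and 2141 UMIs), so that both P23H libraries lay below WT V3. In amacrine cells it had 21.8 CPM in P23H V3, 23.3 CPM in P23H V2 and 95.8 CPM in WT V3, a log2 ratio of -2.14 (-2.43 to -1.86). In Müller glia it had 13.3, 26.6 and 75.7 CPM, a log2 ratio of -2.51 (-3.46 to -1.69), the lowest of the 12 types, and in newly formed rods -0.90, the ratio nearest to 0. The files hold several rows named psmc6, and 659 of its 660 UMIs in P23H V3 and all 2141 in WT V3 were in a single one of them. The fish lines differed too, uth4Tg against AB, and a difference of line cannot be told apart from one of the transgene.

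Of the same 31 subunit genes, 2 were higher in P23H V3 in every type tested, where 8.02% of genes were, so that their share did not exceed that of all genes. psmb5, the chymotrypsin-like catalytic subunit, was higher in all 12 types, in 9 of them by at least 1.5-fold, and the ratio ranged from 0.23 in RPE to 1.75 in erythroid cells. Over all cells it had 87.6 CPM in P23H V3, 81.4 CPM in P23H V2 and 50.3 CPM in WT V3. These came from a pair of rows of that name, of which one had 12.9 CPM in P23H V3, 1.16 CPM in P23H V2 and 4.83 CPM in WT V3 and the other 74.7, 80.3 and 45.5 CPM. psmd3, the scaffold of the lid, was higher in all 14 types, in 7 by at least 1.5-fold, with 106 CPM in P23H V3, 85.7 CPM in P23H V2 and 71.9 CPM in WT V3 over all cells. Its ratio was 1.48 in newly formed rods, 1.39 in rods and 1.26 in RPCs, and 0.38 in bipolar and in amacrine cells. Relative to the median of all genes, both were at or below 0 in RPE. psma8 was higher in 13 of 15 types, in 7 by at least 1.5-fold, and had 162 CPM in P23H V3, 174 CPM in P23H V2 and 90.0 CPM in WT V3 over all cells.

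**Figure D4:**
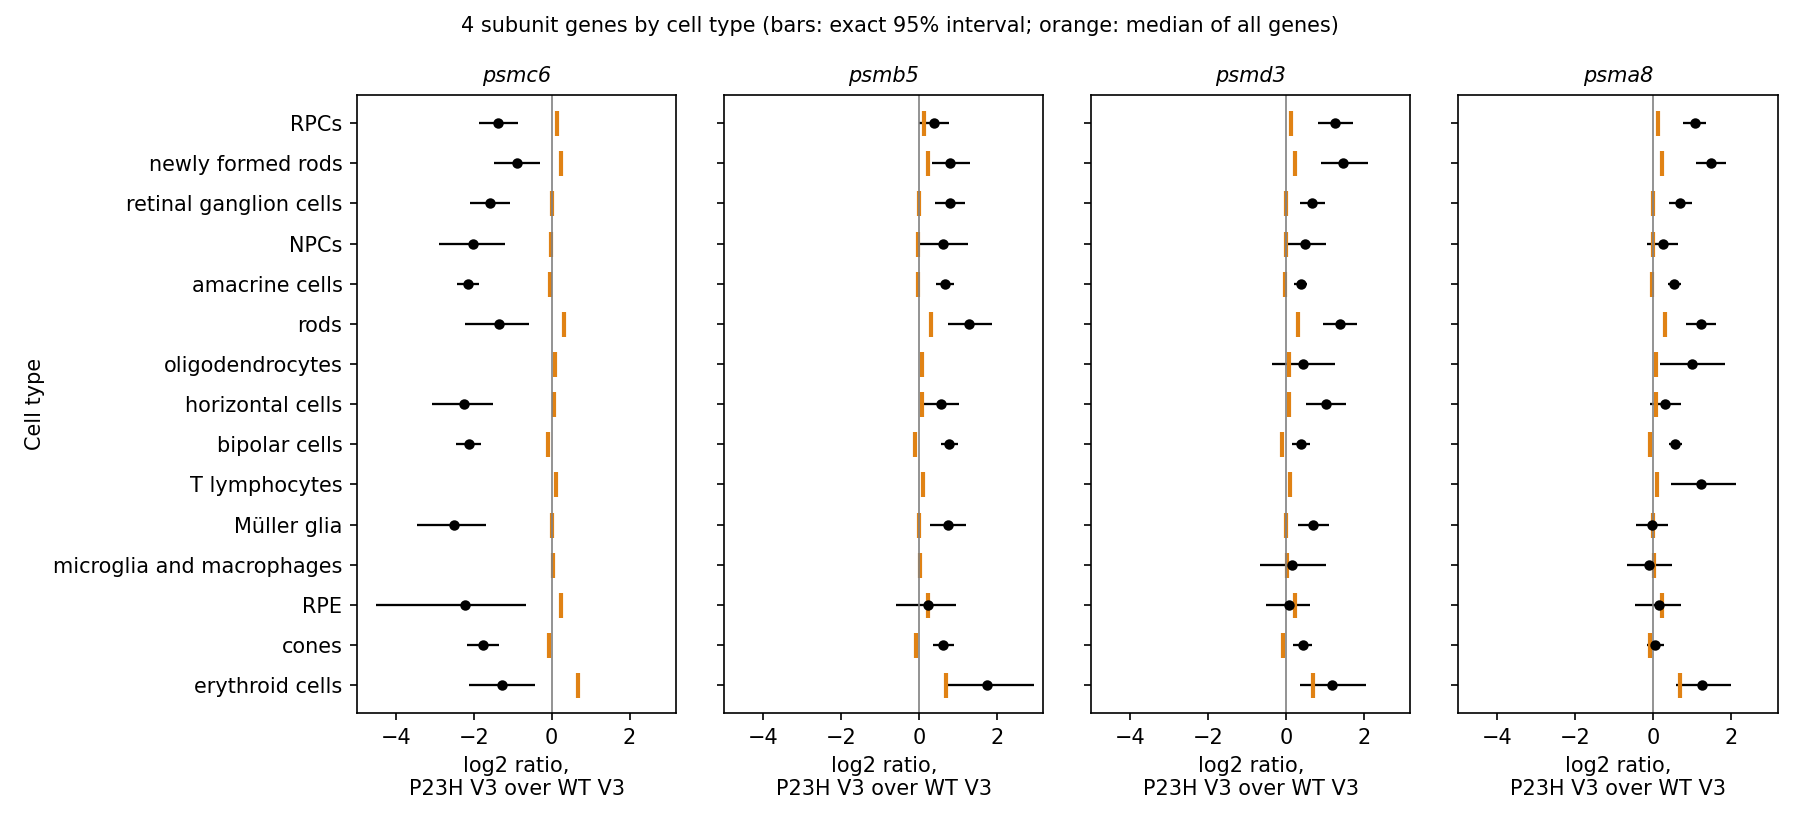
Log2 ratio of P23H V3 over WT V3 (x axis) of 4 subunit genes in each cell type (y axis); points are the ratio, bars the exact 95% interval, and orange marks the median of all genes in that type. psmc6 lies left of 0 in every type with enough UMIs (-2.51 in Müller glia to -0.90 in newly formed rods), and psmb5 and psmd3 lie right of 0 in all types with enough UMIs.

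The immune catalytic subunits psmb8a, psmb9a, psmb10 and psmb12 were concentrated in the immune cells. Their share of all catalytic beta UMIs was 80.3% (77.2 to 83.1) in P23H V3 T lymphocytes and 67.6% (60.2 to 74.4) in WT V3, and 62.5% (58.1 to 66.8), 67.3% (53.3 to 79.3) and 56.1% (48.7 to 63.4) in microglia and macrophages of P23H V3, P23H V2 and WT V3. In T lymphocytes the intervals were apart, in microglia they overlapped. The cluster of T lymphocytes also held markers of microglia and macrophages, 7165 CPM in P23H V3 and 10262 CPM in WT V3, beside 992 and 581 CPM of its own list. With each cell assigned by its own markers the share in T lymphocytes was 85.9% in P23H V3 and 86.0% in WT V3. In erythroid cells the share was 30.6% in P23H V3 and 24.0% in WT V3, and 52.8% and 77.1% with the background profile subtracted, so that the order turned. In rods it was 0.732% in P23H V3, from 3 UMIs, and 0% in WT V3, from 0 of 344 catalytic UMIs, with an upper bound of 1.07%. Between these stood the progenitors, and other types as well. In Müller glia the share was 9.6% in P23H V3 and 4.6% in WT V3. In RPE it was 6.7% in P23H V3, from 5 UMIs, and 2.7% in WT V3.

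In RPCs the immune share was 12.8% (11.8 to 13.9) in P23H V3, 12.6% (9.3 to 16.5) in P23H V2 and 3.8% (2.2 to 6.0) in WT V3, so that both P23H libraries lay above WT V3. Of the subunits, psmb12 had the largest difference. It had 105 CPM in P23H V3, 93.5 CPM in P23H V2 and 5.09 CPM in WT V3 (314, 35 and 3 UMIs), a log2 ratio of 4.36 (2.80 to 6.64). psmb8a had 26.6 CPM in P23H V3, 8.01 CPM in P23H V2 and 5.09 CPM in WT V3 (80, 3 and 3 UMIs), a log2 ratio of 2.39 (0.79 to 4.69), which was 0.20 without the 5% of cells with the most UMIs, 0.34 with each cell assigned by its own markers and 0.65 with P23H V2. psmb9a had 28.3, 16.0 and 17.0 CPM, with an interval that included 0, and psmb10 had 22 UMIs in P23H V3, 1 in P23H V2 and none in WT V3. psmb12 is annotated in RefSeq as a beta 1 type subunit, the position of psmb6. At that position psmb9a and psmb12 took 26.6% (24.4 to 28.9) of UMIs in P23H V3, 34.5% (26.0 to 43.7) in P23H V2 and 8.0% (4.3 to 13.3) in WT V3. At the position of psmb7 psmb10 took 1.17% in P23H V3.

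A UMI of psmb12 was found in 161 of 401 RPCs of P23H V3 (40.1%, 35.3 to 45.1) and in 3 of 78 of WT V3 (3.8%, 0.8 to 10.8), at median depths of 6673 and 5407 UMIs per cell. In cones the share was also higher in P23H V3, from few cells. It was 0.517% of 1160 cells (6 cells) in P23H V3 and 0.174% of 1728 cells (3 cells) in WT V3, at 3569.5 and 3475 UMIs. With each cell thinned to 1000 UMIs, which left out 3 cells of each library, 31 of 398 RPCs of P23H V3 (7.79%, 5.35 to 10.9) and 0 of 75 of WT V3 had a UMI, and 0 of 75 has an upper bound of 4.80%. Markers of microglia summed to 25.0 CPM in the RPCs of P23H V3 and 66.2 CPM in those of WT V3, 3 of 7 detected in each, and those of T lymphocytes to 0.333 CPM with 1 of 7 detected, against 0 in WT V3. In the RPCs without any UMI of these markers, 378 in P23H V3 and 75 in WT V3, psmb12 had 97.6 CPM and 5.35 CPM. Without the 5% of cells with the most UMIs the immune share in P23H V3 RPCs was 7.87%.

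The same gene was higher in NPCs, with 44.5 CPM in P23H V3 and 7.49 CPM in WT V3, and the immune share there was 12.3% (9.4 to 15.8) and 1.6% (0.6 to 3.4). It was in 32 of 561 cells (5.70%) and in 5 of 363 cells (1.38%). In newly formed rods psmb12 had 16.1 CPM in P23H V3, 15.8 CPM in P23H V2 and 2.20 CPM in WT V3, from 27, 3 and 1 UMIs. The difference was not limited to progenitors and newly formed rods. psmb12 was at least 1.5-fold higher in P23H V3 in all 6 types with enough UMIs, in 5 of them with an interval above 0. The immune share was 2.0% (1.5 to 2.6) in bipolar cells of P23H V3 and 0.8% (0.5 to 1.3) in WT V3. In amacrine cells it was 2.0% (1.5 to 2.5) and 0.9% (0.5 to 1.4). P23H V2 had 1 immune UMI in bipolar cells and 3 in amacrine cells. In Müller glia the immune share was 9.6% (7.0 to 12.7) in P23H V3, 2.8% (0.9 to 6.4) in P23H V2 and 4.6% (3.2 to 6.2) in WT V3, so that the P23H libraries differed from each other. In microglia psmb12 had 186, 255 and 84.3 CPM and psmb8a 173, 212 and 112 CPM, the P23H libraries above WT V3, while psmb9a had 62.9, 28.3 and 67.4 CPM. In RefSeq (GRCz12tu) psmb8a, psmb9a and psmb12 are neighbours on the chromosome, beside a peptide transporter of antigen presentation.

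**Figure D5:**
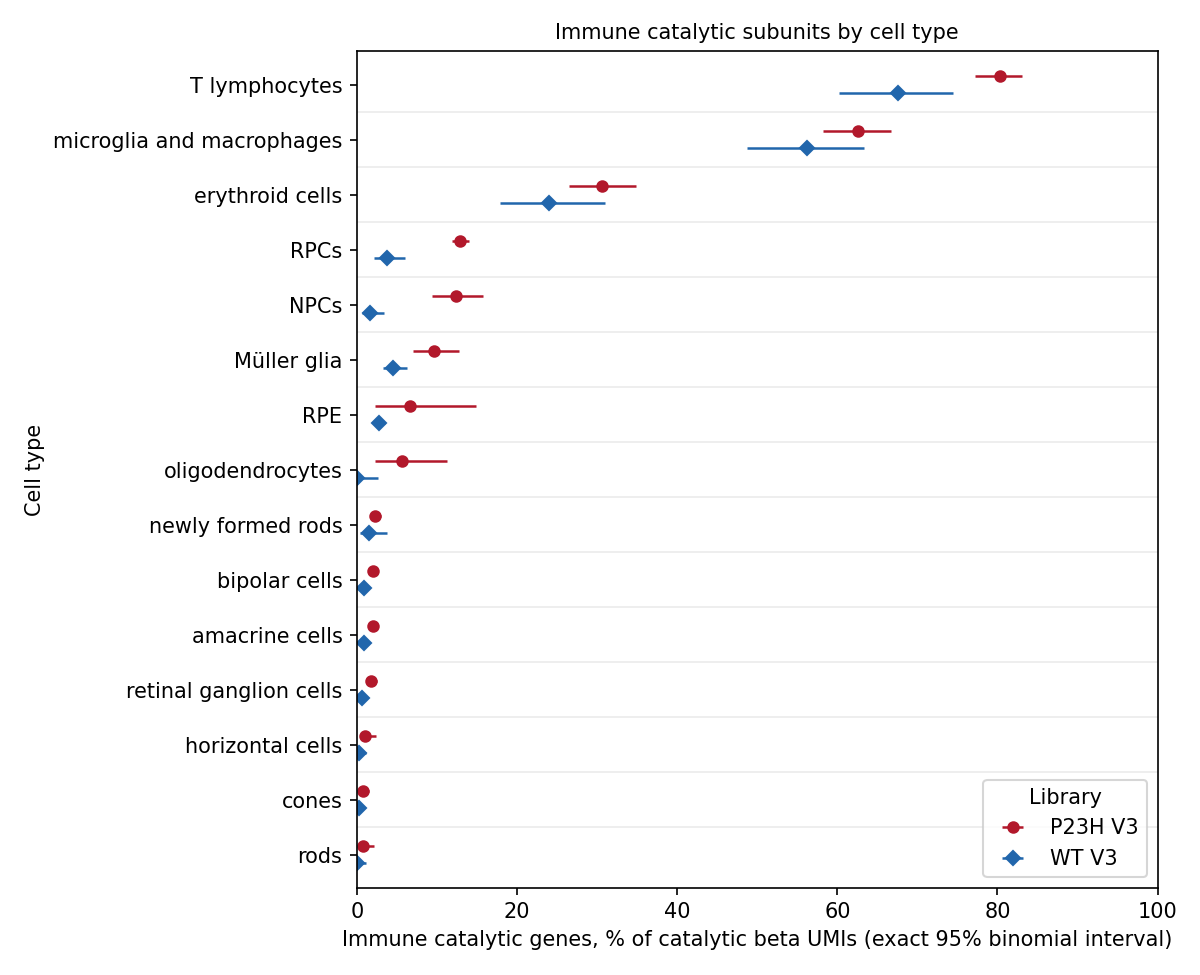
Share of catalytic beta UMIs from the immune subunits psmb8a, psmb9a, psmb10 and psmb12 (x axis, percent) by cell type (y axis) in P23H V3 and WT V3, with exact 95% binomial intervals as bars. T lymphocytes (80.3% in P23H V3 and 67.6% in WT V3) and microglia lie at the right, and RPCs of P23H V3 (12.8%) lie right of those of WT V3 (3.8%).

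Several subunits have a pair of copies in zebrafish, named a and b. The copies of psma6, an alpha subunit, took near equal parts, with a share of psma6a of 56.6% in RPCs of P23H V3 and 53.7% in WT V3, but of 32.1% and 40.6% in cones. psmc1b carried nearly all UMIs of the ATPase psmc1, and psmc1a at most 11.1% in the V3 libraries. The ubiquitin receptor psmd4 was split by cell type, with psmd4a at 64.8% in P23H V3 cones and 69.9% in WT V3 cones, and at 36.2% and 42.3% in amacrine cells. psmd11a, a lid subunit, took 70.0% in microglia of P23H V3 and 68.2% in WT V3, and 49.3% and 59.3% in newly formed rods. In P23H V2 psmd11b stood at 131 CPM over all cells, against 50.0 CPM in P23H V3 and 36.5 CPM in WT V3, and the share of psmd11a in RPCs was 20.3%, against 48.5% and 53.6%. The split of reads between near-identical copies by the authors' counting is uncertain, and these shares are descriptions.

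The genes that act with the proteasome did not all go the same way. Of 33 listed partners, assembly factors, activators, regulators and ubiquitin genes, 31 are in the files. In newly formed rods 6 of 22 with enough UMIs were at least 1.5-fold higher in P23H V3, where 29.7% of all genes were, a similar share. There 1 was lower, where 13.1% of all genes were. In rods 9 and 1 of 17 were, where 35.9% and 12.2% of all genes were. In NPCs 3 and 3 of 15 were, where 14.7% of all genes were in each direction. In RPCs 4 of 23 were higher, where 23.7% of all genes were. Another 4 were lower there, and 38.8% of all genes were past 1.5-fold in either direction. Of the assembly factors, pomp, which matures the core, had 479 CPM in P23H V3, 788 CPM in P23H V2 and 217 CPM in WT V3 in newly formed rods, a log2 ratio of 1.14 (0.84 to 1.46). psmg1, a chaperone of the alpha ring, had 65.4, 26.3 and 28.5 CPM there. In RPCs pomp had 439, 604 and 302 CPM. In rods pomp had 132 CPM in P23H V3 and 127 CPM in WT V3, without a difference beyond counting error.

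uchl5, a ubiquitin hydrolase that binds the cap, had 70.2 CPM in newly formed rods of P23H V3, 26.3 CPM in P23H V2 and 10.98 CPM in WT V3, a log2 ratio of 2.68 (1.41 to 4.33), and 119, 74.8 and 40.7 CPM in RPCs. The UMI limit for testing counts both V3 libraries together, and uchl5 passed it in both types through its P23H V3 UMIs. Its levels in WT V3 and P23H V2 newly formed rods rest on few UMIs. In rods the higher ones were mostly ubiquitin genes, 7 of 9 tested. sqstm1, the autophagy receptor p62, had 101 CPM in P23H V3, 77.3 CPM in P23H V2 and 36.2 CPM in WT V3, ubqln4, a shuttle for ubiquitinated proteins, 103, 65.7 and 37.8 CPM, and uba1, the ubiquitin-activating enzyme, 123, 147 and 55.1 CPM. The ubiquitin gene ubb was also higher in P23H V3 rods, with a log2 ratio of 0.96, while P23H V2 had lower CPM of it than WT V3. rad23b, a shuttle that carries ubiquitinated proteins to the proteasome, was lower in all 4 types, with log2 ratios of -0.84 in rods, -1.06 in newly formed rods, -0.83 in RPCs and -1.41 in NPCs. Its level was 34.4 CPM in P23H V3 rods, 46.4 CPM in P23H V2 rods and 61.6 CPM in WT V3 rods.

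A list of 10 genes took in genes of antigen presentation, which uses the peptides the immune proteasome makes, and the regulators stat1a, stat1b, irf1a and irf1b. Of the 10, 9 are in the files. In RPCs 3 of 5 with enough UMIs were at least 1.5-fold higher in P23H V3 and 1 lower, and in newly formed rods 1 and 1 of 3. In NPCs 2 and 0 of 3 were, and in rods 1 and 0 of 1. The shares of all genes in these types are those given beside the partner genes, and at most 5 genes of this list were tested in each. b2m was higher in all 4 types. It had 445 CPM in RPCs of P23H V3, 235 CPM in P23H V2 and 183 CPM in WT V3, 148, 168 and 43.9 CPM in newly formed rods, and 850 CPM in NPCs of P23H V3 and 228 CPM in WT V3. irf1b, an interferon-responsive regulator, had 27.3 CPM in P23H V3 RPCs, 24.0 CPM in P23H V2 and 8.49 CPM in WT V3, while stat1a had 27.3, 5.34 and 69.6 CPM, the other way. irf1b passed the UMI limit through its P23H V3 UMIs, and its levels in WT V3 and P23H V2 rest on few UMIs. psmc3ip, the symbol that is no subunit, had 77 of its 89 UMIs of P23H V3 in RPCs, with 25.6 CPM in P23H V3, 16.0 CPM in P23H V2 and 40.7 CPM in WT V3, and its interval included 0.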

How the data were processed

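Libraries of whole adult retina were made on the 10x platform and sequenced. The authors deposited UMI counts per gene and cell barcode for each library, unnormalized, and the submitters' processing notes name Cell Ranger 3.1.2.0, FastQC 0.11.9, R 3.6.1, Seurat 3.1.1 and the build GRCz11. A WT V2 library was not analysed here. Rows of the same symbol with a numeric suffix were summed, which turned 47048 rows into 30579 symbols and 56 rows into the 46 members. The members, gene lists and alternatives were chosen with earlier results of these data known.

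Cells with under 200 genes, more than 4700 (P23H) or 6000 (WT) genes, or more than 10% of UMIs from the 2 mitochondrial rows were left out, which after filtering kept 15514 of 15585 barcodes in P23H V3, 4671 of 7956 in P23H V2 and 13554 of 13966 in WT V3. Both V3 libraries were joined by the canonical correlation method of Seurat 5.3.0 under R 4.3.3 (2000 variable genes without the members, 20 dimensions, resolution 0.8), and P23H V2 was clustered by itself. Clusters were named from fixed markers, at least 3 of which had to be detected above the other cells, and a type had to have at least 50 cells in each V3 library. These names were rebuilt and may differ from those of the study. No doublet caller was applied, and the 5% of cells with the most UMIs were left out in an alternative.

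UMIs were summed per library and type and divided by all UMIs of those cells (CPM). Ratios have exact conditional binomial intervals, levels exact Poisson intervals and shares exact Clopper-Pearson intervals (95%), all for counting error only. A gene was tested in a type with at least 50 UMIs over both V3 libraries and counted as higher or lower past 1.5-fold, a rule of size and not a significance test, since each group has 1 library. A count of 0 was set to 3 as a floor for a bound. In rods, newly formed rods, RPCs and NPCs the named genes were those at both ends of the ratios, 2 at each end, beside the subunits the study names, the immune subunits, the copies and the most and least abundant members. The calls were tested on simulated counts with known changes. These held counting error only, so that the test cannot show how the calls hold between libraries. TMM factors came from edgeR 4.0.16 and the sums from Python 3.11.15. Sequences and coordinates of the members did not enter the counts. The gene order and names cited from RefSeq are of GRCz12tu, another build than the GRCz11 of the counts.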

Additional observations from a re-analysis of the deposited data

Results flagged for a closer look

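The summed subunit level differed between P23H V3 and WT V3 beyond the counting interval in 11 of 15 types, and the sign was not the same in all of them. The log2 ratio was 0.89 in newly formed rods, 0.64 in RPCs, 0.63 in rods, 0.60 in erythroid cells, 0.19 in T lymphocytes and 0.087 in retinal ganglion cells, and it was -0.39 in RPE, -0.20 in NPCs, -0.19 in cones, -0.11 in bipolar cells and -0.074 in Müller glia. Whether the effect differs between types was not tested over replicates, since each genotype had 1 library of this chemistry.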

How the results depend on the processing

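No paired analysis was possible because each group has 1 library, and for the same reason no replicate could be left out. Alternatives were compared over 136 results, where 1870 of 2106 values stayed within the counting interval of the value (for a count, within 1.5 times), 232 moved and 4 turned round. Those that turned, of sums whose interval was apart from 0 and of genes past 1.5-fold, were the summed log2 ratio of erythroid cells with TMM scaling (-0.092), of cones with the background profile subtracted (0.041), of retinal ganglion cells with P23H V2 (-0.16) and the ratio of psmb5 in newly formed rods with P23H V2 (-0.011). The cause of these changes was not tested. Of 1435 log2 ratios, another 45, nearer to 0 by that rule, also changed sign, among them with P23H V2 psmb2 (-0.46) and psmb6 (-0.43) in newly formed rods and psmb5 (-0.30), psmb6 (-0.28) and psmc5 (-0.37) in RPCs.

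For rods (0.63) the summed ratio was 0.34 with each library clustered by itself, 0.45 with each cell assigned by its own markers, 0.29 with TMM scaling, 0.31 with totals without the 20 most abundant genes, 1.18 with the background profile subtracted, 1.54 with P23H V2, 0.45 with the unnamed rod-like cluster added and 0.45 in the smaller rod cluster alone, and the count of subunit genes higher (19) was 10 with each library clustered by itself, 11 by own markers, 8 with TMM, 9 without the 20 genes, 29 with P23H V2, 11 with the rod-like cluster and 6 at a limit of 2-fold. For newly formed rods (0.89) the ratio was 1.07 clustered by itself, 0.67 with TMM, 1.02 with the background subtracted and 0.66 with P23H V2, and the count of subunit genes higher (27) was 13 with P23H V2 and 11 at 2-fold. For RPCs (0.64) it was 0.87 at resolution 0.4, 0.99 clustered by itself, 0.52 with TMM, 0.50 without the 5% of cells with the most UMIs and 0.53 with P23H V2, and the count (20) was 13 without those cells, 11 with P23H V2 and 4 at 2-fold. For NPCs (-0.20) it was -0.33 at resolution 1.2, -0.31 clustered by itself, -0.031 by own markers and -0.47 with the background subtracted, and the count of subunit genes lower (7) was 4 with at least 500 genes per cell, 2 by own markers, 12 with the background subtracted and 1 at 2-fold.

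The immune share in P23H V3 RPCs (12.8%) was 14.6% at resolution 0.4, 14.2% by own markers, 7.87% without the 5% of cells with the most UMIs and 14.2% with copies not summed, and 7.80% by own markers in WT V3 RPCs (3.8%). In microglia it was 67.9% by own markers and 67.3% in P23H V2 (62.5%), and 65.2% in WT V3 with the background subtracted (56.1%). The 2 types with a higher core share were 4 with at least 500 genes per cell and 4 clustered by itself, and 1 without the 5% of cells, 1 with copies not summed and 1 without psmc6, and the 1 type with a lower share was 2 with the background subtracted and 0 without the 5% of cells. The alternatives without psmc6, without shared barcodes, with the rod-like cluster added and with single rod or RPE clusters were chosen after seeing the data. With P23H V2 in place of P23H V3, NPCs, erythroid cells and T lymphocytes gave no value.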
